A study of Mus musculus with 4 samples.

Results

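The genes described here are 10 enzymes that handle vitamin A: the retinol dehydrogenase genes Rdh1, Rdh5, Rdh10, Rdh11, Rdh12, Rdh13 and Rdh14, and the retinaldehyde dehydrogenase genes Aldh1a1, Aldh1a2 and Aldh1a3. They were found by name among the 83122 array probes, where each of the 10 genes was present, with 50 probes in 12 of 19134 regions. Intestines came from mice of the inbred strain C57BL/6, aged 32 months or 3 months, with no other treatment or allele named in the labels. Genomic DNA of the 32-month sample carried the red dye Cy5 and that of the 3-month sample the green dye Cy3, on 2 oligonucleotide arrays, of which the first held chromosomes 1 to 8 and the second chromosomes 9 to 19, X and Y. The title of the series names DNA methylation as the measurement, and the step that links a probe's signal to methylation is not given in the sources used here, so values below are signals and their ratios. The list of genes was picked from earlier results of the same 32-month over 3-month ratios, so all its values are a description. Each array compared a single sample of each age, without a dye swap, so no difference has a replicate check and no p-value was computed.

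Retinol dehydrogenases oxidise retinol, the circulating form of vitamin A, to retinal, and several of them also run the reverse reaction. Retinaldehyde dehydrogenases of the Aldh1a family then oxidise retinal to retinoic acid, which binds nuclear receptors that switch genes on and off. In the intestine, epithelial cells and dendritic cells make retinoic acid, which gives lymphocytes their homing receptors for the gut.

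Of the 50 probes, 26 were well above background at both ages, 5 at 32 months alone, 5 at 3 months alone and 14 at neither age. The 36 probes above background in at least 1 channel were used, and 11 of the 12 regions had at least 2 of them. No probe of these genes was saturated or carried an outlier mark. Over the whole arrays, 72.5% of probes at 32 months and 71.2% at 3 months were well above background on the first array, and 70.1% at 32 months and 71.4% at 3 months on the second. None of the 28 measured marker genes of epithelium, immune cells, muscle and stroma, nerve cells or endothelium was called different between the ages. Of all measured gene names, 2.29% were called higher and 0.758% lower, so few calls among so few genes would stand out. The highest marker medians were 0.98 for Tagln and 0.82 for Lgr5, both with every used probe above 0, and the lowest was -0.53 for S100b. Signals from genomic DNA do not show which cell types a sample held. X-linked regions had a median log2 ratio of -0.07, with 20 of 508 called lower at 32 months, while all 10 genes here are autosomal. The sex of the animals is not given in the labels.

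The probes at least 2-fold higher at 32 months, and some of the others, are given with their positions as listed in the files. The probe with the lowest log2 ratio, Rdh11 probe 3 at -0.76, is not among them. The build behind these positions is not given in the sources used here. Each sequence is printed as the array design lists it, with CG dinucleotides, the sites of methylation in mouse DNA, in capitals. The first 4 are the probes at least 2-fold higher at 32 months, the next 3 are bright or bounded probes of Rdh13, Rdh14 and Rdh11, and the last 2 are bright probes of Rdh10 and Aldh1a3 near equal signal.
Rdh1 region 1 probe 1, chr10:127154742-127154786: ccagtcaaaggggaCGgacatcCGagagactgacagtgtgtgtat
Rdh1 region 2 probe 3, chr10:127162578-127162637: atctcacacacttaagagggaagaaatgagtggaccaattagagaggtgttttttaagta
Rdh1 region 2 probe 4, chr10:127162706-127162764: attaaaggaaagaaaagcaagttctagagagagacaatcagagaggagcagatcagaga
Rdh12 region probe 3, chr12:80127609-80127666: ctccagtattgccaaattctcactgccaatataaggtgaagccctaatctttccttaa
Rdh13 region probe 1, chr7:4048405-4048450: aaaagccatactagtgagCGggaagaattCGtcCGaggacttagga
Rdh14 region probe 5, chr12:10416968-10417012: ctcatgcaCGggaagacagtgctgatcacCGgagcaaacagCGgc
Rdh11 region probe 2, chr12:80110650-80110699: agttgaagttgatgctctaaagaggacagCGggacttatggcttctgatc
Rdh10 region 1 probe 4, chr1:16090266-16090310: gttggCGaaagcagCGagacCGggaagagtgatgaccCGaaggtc
Aldh1a3 region probe 2, chr7:66307037-66307081: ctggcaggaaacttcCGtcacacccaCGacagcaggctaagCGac
Of the first 4, only the probe of the first Rdh1 region holds any CG, and it holds 2. The other 3 have none, the Rdh11 probe holds 1, and the Rdh13, Rdh14, Rdh10 and Aldh1a3 probes hold 3 or 4 each. The printed probes were chosen by ratio and brightness, so these counts do not describe all 50 probes. Probes with no CG also lay near equal signal, such as the bright Aldh1a1 probe 1, not printed, at a log2 ratio of 0.03.

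Promoter windows of 300 bases, 250 before and 50 after a gene's start, were available from RefSeq on assembly GRCm38.p6 for 7 of the 10 genes. Probes matched windows of Rdh1, Rdh5, Rdh11, Rdh12, Rdh14 and Aldh1a1 letter for letter. The windows of Rdh1, Rdh12 and Rdh11 are shown because each holds a probe whose log2 ratio lay farther from 0 than any in the other 3 genes' windows, a choice made after the values were seen, and capitals mark the stretches covered by probes. The coordinates are those of GRCm38.p6 and differ from the positions in the files.
Rdh1 promoter, chr10:127759513-127759812, plus strand: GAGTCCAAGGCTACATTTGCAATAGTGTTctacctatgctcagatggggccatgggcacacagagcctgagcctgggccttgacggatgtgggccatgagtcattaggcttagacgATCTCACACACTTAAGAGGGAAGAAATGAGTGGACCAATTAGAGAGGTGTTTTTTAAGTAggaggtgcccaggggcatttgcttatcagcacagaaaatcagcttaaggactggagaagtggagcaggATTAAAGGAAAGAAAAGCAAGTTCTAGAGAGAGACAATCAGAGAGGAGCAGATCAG
Rdh12 promoter, chr12:79208663-79208962, plus strand: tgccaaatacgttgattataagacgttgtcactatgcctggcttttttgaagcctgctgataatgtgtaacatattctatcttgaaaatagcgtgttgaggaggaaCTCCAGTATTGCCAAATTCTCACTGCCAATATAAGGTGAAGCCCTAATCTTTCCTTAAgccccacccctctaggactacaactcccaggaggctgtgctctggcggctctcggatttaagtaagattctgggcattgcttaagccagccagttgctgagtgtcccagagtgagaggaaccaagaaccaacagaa
Rdh11 promoter, chr12:79191806-79192105, minus strand: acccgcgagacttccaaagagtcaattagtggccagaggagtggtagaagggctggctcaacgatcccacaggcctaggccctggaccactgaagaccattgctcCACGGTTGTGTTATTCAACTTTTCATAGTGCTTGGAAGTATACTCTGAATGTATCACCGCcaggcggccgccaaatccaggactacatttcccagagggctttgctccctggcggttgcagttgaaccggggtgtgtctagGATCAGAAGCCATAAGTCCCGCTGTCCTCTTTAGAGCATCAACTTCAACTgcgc
The Rdh1 window holds probe 3 of the second Rdh1 region whole, from 134 to 75 bases before the start, and parts of probes 2 and 4. It contains 2 CG sites, and 23.3% of 32851 windows in the table contain as few. The Rdh12 window contains 5 and holds Rdh12 probe 3 from 144 to 87 bases before the start. The Rdh11 window contains 11, with 60.4% of windows holding as few, and covers Rdh11 probes 2 and 3. The letters CCCGGG, read on either strand because the motif is its own reverse complement, occur in none of these 3 windows and in 13.5% of all windows. Of the other windows of these genes, only that of Aldh1a2 holds these letters, at 1 place. No probe of the 10 genes contains them.

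A region is a run of neighbouring probes of the same gene name at most 1000 bp apart, and its value is the median over used probes of the log2 ratio of 32-month over 3-month signal, centred on the array's median. The SD given with it is the spread over probes of the region, not over animals. A region was called when its median was at least 1, or at most -1, with every used probe on the same side of 0. By that rule 0 of the 11 measured regions were called higher and 0 lower at 32 months, where 2.01% of all 15352 measured regions were called higher and 0.632% lower. The median of the 11 regions was 0.11, with a range of -0.50 to 0.81 and 6 of 11 above 0, and all measured regions had a median of 0.015 with 52.2% above 0. The 8 retinol dehydrogenase regions had a median of 0.12 and the 3 retinaldehyde dehydrogenase regions a median of 0.11. Within 0.5 of 0 on the log2 scale lay 7 of the 11 regions, a smaller share than the 86.3% of all regions. Every used probe lay above 0 in 4 regions, the second of Rdh1 and those of Rdh13, Aldh1a2 and Aldh1a3, and below 0 in 1 region, that of Rdh11. Among all measured regions, 14.8% had every used probe above 0 and 12.9% had every used probe below 0.

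**Figure D1:**
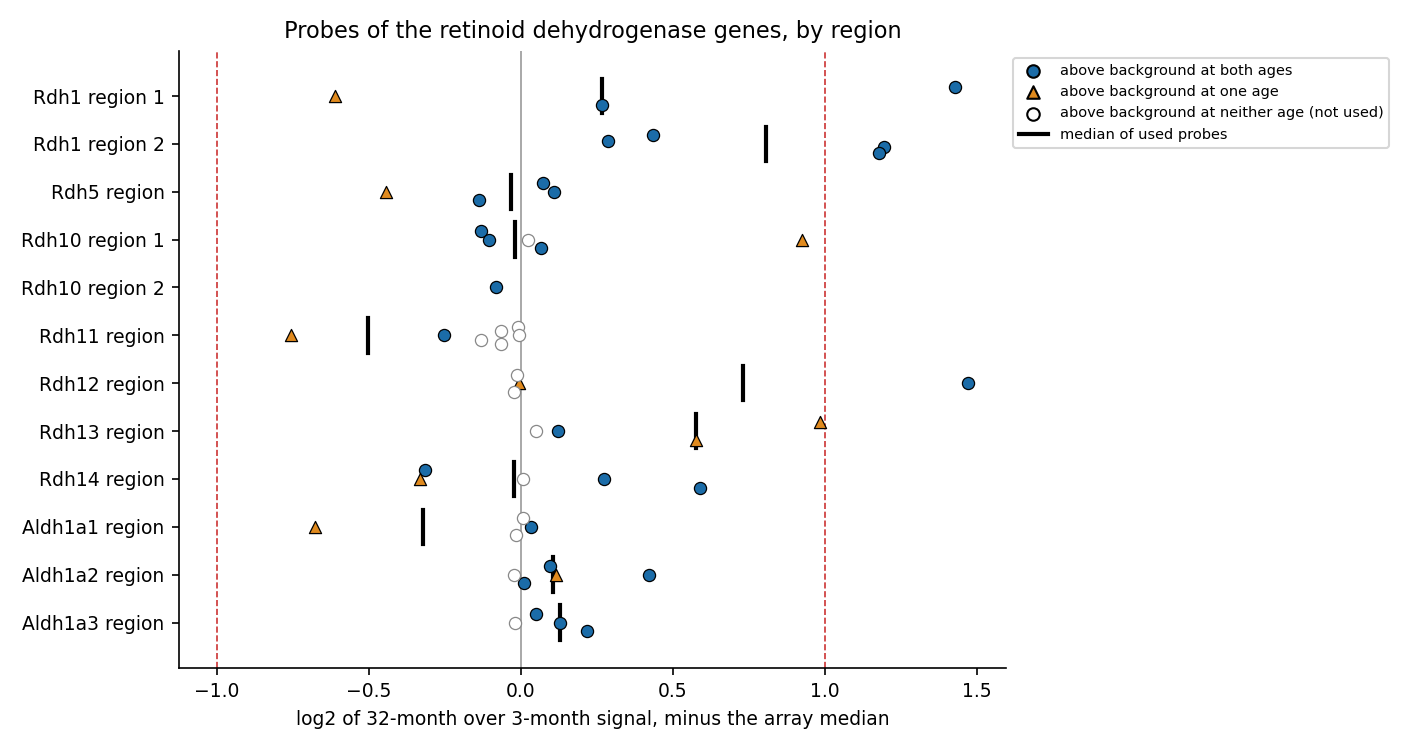
Each point is 1 probe, placed by its log2 ratio of 32-month over 3-month signal minus the array median, with 1 row per region. Black bars are region medians and dashed lines mark -1 and 1. No median crosses a dashed line, and the highest, 0.81, belongs to the second Rdh1 region.

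With the size asked for lowered to 0.5, a choice made after the values were seen, the second Rdh1 region and the Rdh13 region counted as higher and the Rdh11 region as lower. Among all regions 5.29% then counted as higher and 2.82% as lower. Just inside that limit stood Rdh11 at -0.50 and Rdh13 at 0.58. The nearest region outside it was Aldh1a1 at -0.32, whose 2 used probes lay on opposite sides of 0. Rdh12, at 0.73, passed the size, but 1 of its 2 used probes lay just below 0. Of single probes, 4 of the 36 used had a log2 ratio of at least 1 and 0 of 36 had one of at most -1, against 6.35% and 3.35% of all used probes. Of the 26 probes above background at both ages, 20 were higher and 6 lower at 32 months, and 51.9% of all 55644 such probes on the arrays were higher. That split depends on the centring: it was 16 higher and 10 lower with ratios centred on probes above background at both ages, where 27818 of all such probes were higher and 27822 lower, and 15 higher and 11 lower without centring, where 45.5% of all such probes were higher. Within 0.5 of 0 lay 21 of the 26, a share of 80.8%, beside 75.0% of all such probes.

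**Figure D2:**
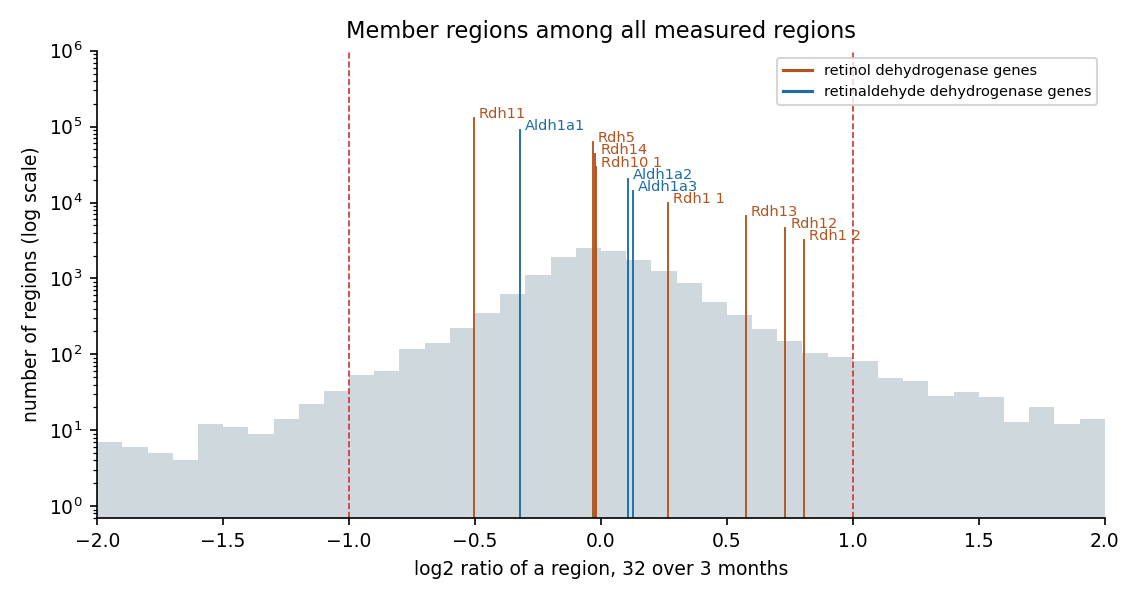
Grey bars count all measured regions by log2 ratio of 32 over 3 months, on a log scale. Each coloured line marks a region of these genes, drawn to an arbitrary height for its label, and dashed lines mark -1 and 1. All 11 lie between -0.50 and 0.81.

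Rdh1 encodes a short-chain dehydrogenase that oxidises all-trans-retinol, and 3 of the 4 probes at least 2-fold higher at 32 months carried its name. It shares a divergent promoter in the array design with Admr, now named Gpr182, and lies between Gpr182 and Rdh9 on chromosome 10. All its probes were named for both genes. The brightest, probe 1 of the first region, lies on the Gpr182 side and outside the Rdh1 promoter window. Which of the genes it marks is not known. The second region of Rdh1, chr10:127161767-127162764, is the one that holds the RefSeq promoter shown above. Probe 1 of that region had a signal of 517 at 32 months and 421 at 3 months. Probe 2 had 276 at 32 months and 249 at 3 months. These outer probes differed little, with log2 ratios of 0.44 and 0.29 and scanner errors of 0.32 and 0.49. The scanner error is the deposited error of the log ratio of a single spot, put on the log2 scale. Probe 3 had a signal of 222 at 32 months and 107 at 3 months, a log2 ratio of 1.19 with an error of 0.79. Probe 4 had 302 at 32 months and 147 at 3 months, a log2 ratio of 1.18 with an error of 0.54. All 4 probes were higher at 32 months, and probes 3 and 4, by the gene's start, were 2.28-fold and 2.26-fold higher. The region's median was 0.81 ± 0.48 (SD, 4 probes), a 1.75-fold difference that 4.19% of measured regions reach. With normexp background correction the median was 0.31, and probes 3 and 4 had ratios of 0.26 and 0.38. That setting is more than another way to remove background. It starts from the deposited mean signals, without the scaling between dyes, and adds 50 to both channels. The added 50 draws ratios of dim probes towards 0 by construction, and how much of the drop it accounts for was not tested. With probes joined up to 500 bp the outermost probe fell away and the region was called higher, at 1.18 over 3 probes.

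The first Rdh1 region, chr10:127154742-127155614, had 3 probes that differed from one another. Probe 1 had a signal of 9150 at 32 months and 3750 at 3 months. That is a 2.69-fold difference after centring, a log2 ratio of 1.43 with an error of 0.24. Under normexp the ratio was 2.12, and under loess, which removes dependence on brightness, it was 1.33. Normexp also raised other bright probes, such as Aldh1a2 probe 4 from 0.01 to 0.77 and Rdh11 probe 2 from -0.25 to 0.48. It lowered dimmer ones, such as probe 3 of the second Rdh1 region from 1.19 to 0.26. The neighbours of probe 1 in the first Rdh1 region did not share its difference. Probe 2 had 376 at 32 months and 344 at 3 months, a log2 ratio of 0.27 with an error of 0.40. Probe 3 had 63.6 at 32 months, which was not well above background, and 107 at 3 months, at least 1.53-fold lower at 32 months. The phrase "at least" marks a bound wherever 1 age was not well above background: the dim age was set to its own signal or to the dimmest signal called well above background, whichever was higher. For each probe so marked the dim age's own signal was the higher, so the fold equals the measured ratio. It does not allow for scanner error, which was 1.46 to 1.76 for these probes, larger than their log2 ratios. The region's median was 0.27 ± 1.02 (SD, 3 probes), with probes on both sides of 0. It was 0.85 with only the 2 probes above background at both ages and -0.17 with probes joined up to 500 bp, which drops probe 1.

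**Figure D3:**
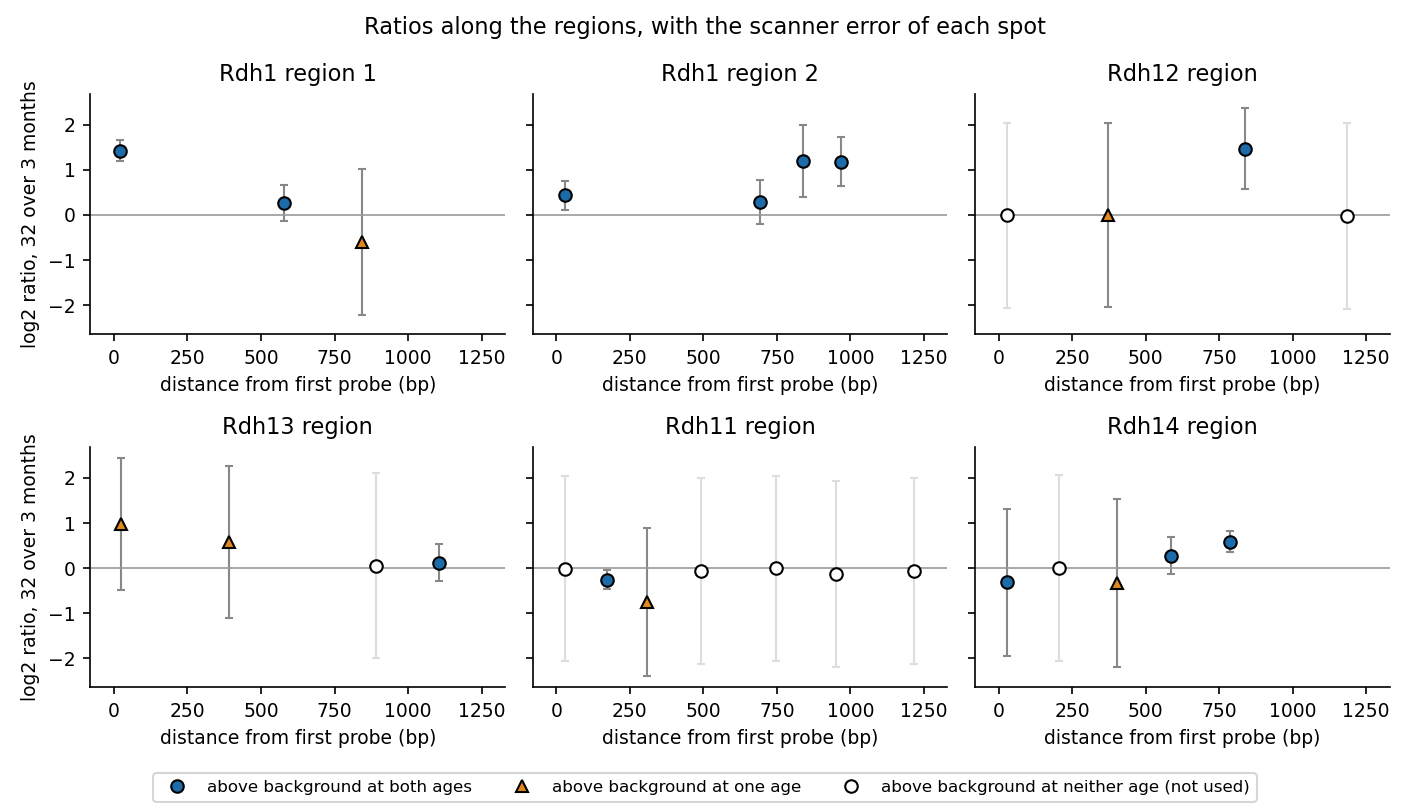
Log2 ratio of 32-month over 3-month signal for each probe against its distance in bp from the first probe, in 6 regions. Vertical bars are the scanner error of each spot, and white points were above background at neither age and were not used. In the first Rdh1 region the first probe stands at 1.43 and the next at 0.27, and in the second region the last 2 probes stand at 1.19 and 1.18.

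Rdh11 and Rdh12 lie side by side on chromosome 12. Rdh12 encodes a photoreceptor enzyme that reduces retinal, and Rdh11 a widely expressed enzyme of the same kind. In the Rdh12 region, chr12:80126798-80128011, 2 of 4 probes were used. Probe 3, in the promoter window, had a signal of 237 at 32 months and 94.2 at 3 months, a log2 ratio of 1.47 with an error of 0.91. Probe 2 had 54.9 at 32 months and 60.8 at 3 months, and the 3-month signal was not well above background, so no fold is given. The median of 0.73 ± 1.05 (SD, 2 probes) thus rested on a single probe above background at both ages, probe 3, whose ratio was 0.26 under normexp. The median was 0.051 under normexp and -0.011 with dim probes kept. In the Rdh11 region, chr12:80110502-80111749, 2 of 7 probes were used, and both were lower at 32 months. Probe 2 had 2400 at 32 months and 3150 at 3 months, a log2 ratio of -0.25 with an error of 0.21. Probe 3 had 65.1 at 32 months, not well above background, and 121 at 3 months, at least 1.69-fold lower at 32 months. The median was -0.50 ± 0.35 (SD, 2 probes), and 4.82% of measured regions were as low. It was 0.062 under normexp and -0.067 with dim probes kept, so the direction did not hold under the first of these.

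Rdh13 encodes a dehydrogenase of mitochondria. Its region, chr7:4048405-4049538, had 3 used probes of 4, all higher at 32 months. Probe 1 had 117 at 32 months and 59 at 3 months, the 3-month signal being not well above background, so that it was at least 1.98-fold higher at 32 months. Probe 2 had 94.5 at 32 months and 63.2 at 3 months, at least 1.49-fold higher by the same kind of bound. Probe 4 was above background at both ages, with 348 at 32 months and 319 at 3 months, a log2 ratio of 0.12 with an error of 0.41. The larger ratios belonged to the probes that were dim at 3 months. The median was 0.58 ± 0.43 (SD, 3 probes), which 7.12% of measured regions reach, and it was 0.014 under normexp.

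Rdh10 encodes the dehydrogenase that makes most retinal for retinoic acid in the mouse embryo. In the array design it shares a divergent promoter with Rpl7, a ribosomal protein gene. Its first region, chr1:16089675-16090630, had 3 bright probes at nearly equal signal. These had 1100, 807 and 1280 at 32 months and 1200, 866 and 1220 at 3 months. Their log2 ratios were -0.13, -0.11 and 0.065, each with an error of 0.23 to 0.25. A dim probe between them had 124 at 32 months and 65.2 at 3 months, at least 1.90-fold higher at 32 months, with a ratio of -0.03 under normexp. The median was -0.02 ± 0.50 (SD, 4 probes). The second Rdh10 region, chr1:16091230-16091278 inside the gene, held a single probe with 405 at 32 months and 427 at 3 months, a log2 ratio of -0.08.

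Rdh5 encodes a cis-retinol dehydrogenase of the visual cycle in the retinal pigment epithelium. In its region, chr10:128322029-128322698, the 3 probes above background at both ages had 785, 1400 and 250 at 32 months and 823, 1430 and 303 at 3 months. Their log2 ratios after centring lay between -0.14 and 0.11, within their scanner errors. The fourth probe had 61.4 at 32 months, not well above background, and 91.9 at 3 months, at least 1.36-fold lower at 32 months. The median was -0.03 ± 0.25 (SD, 4 probes).

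Rdh14 encodes another short-chain dehydrogenase of the family. Its region, chr12:10416204-10417012, was split between promoter and gene body. The 2 probes inside the gene were higher at 32 months. Probe 5 had 1300 at 32 months and 952 at 3 months, a log2 ratio of 0.59 with an error of 0.23. Probe 4, across the start, had 353 at 32 months and 322 at 3 months, a log2 ratio of 0.27 with an error of 0.41. The used promoter probes were near background and lower at 32 months. Probe 1 had 68.8 at 32 months and 94.3 at 3 months, and probe 3 had 53.1 at 32 months, not well above background, and 73.6 at 3 months. Opposite signs left the median at -0.02 ± 0.45 (SD, 4 probes), and it was 0.27 with only the 3 probes above background at both ages.

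**Figure D4:**
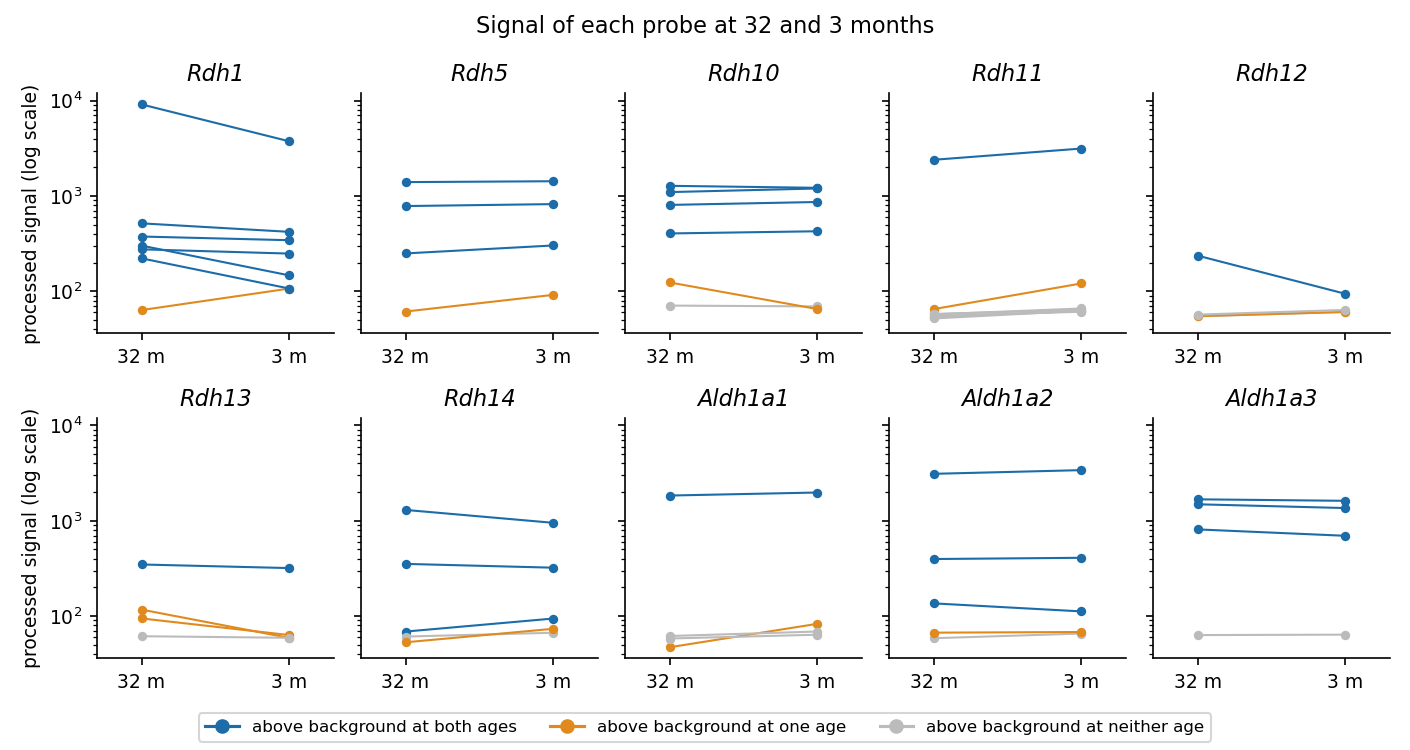
Processed signal, on a log axis, of every probe at 32 months (left) and 3 months (right), with 1 panel per gene. Probe 1 of the first Rdh1 region stands at 9150 at 32 months and 3750 at 3 months, and 21 of the 26 probes above background at both ages lie within 0.5 of 0 on the log2 scale after centring.

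None of the regions of the 3 retinaldehyde dehydrogenase genes was called different between the ages. Aldh1a3, which makes retinoic acid in the eye and nasal region of the embryo, had the closest agreement among probes of its region, chr7:66306334-66307385. Its 3 used probes had 1680, 1490 and 812 at 32 months and 1620, 1360 and 696 at 3 months. All 3 were slightly higher at 32 months, with log2 ratios of 0.05, 0.13 and 0.22 and errors of 0.22, 0.22 and 0.25. The median was 0.13 ± 0.085 (SD, 3 probes), and it was 0.31 under normexp. Aldh1a2 encodes the main retinoic acid producing enzyme of the early embryo and is also used by gut dendritic cells. In its region, chr9:71013366-71014693, probe 4 had 3110 at 32 months and 3400 at 3 months, a log2 ratio of 0.01 after centring. Probes 2 and 3 had 397 and 136 at 32 months and 409 and 112 at 3 months, with ratios of 0.10 and 0.42. Probe 5, above background at 32 months alone, had 67 at 32 months and 68.1 at 3 months. The median was 0.11 ± 0.18 (SD, 4 probes), and it was -0.02 without centring. The RefSeq promoter window of Aldh1a2 holds 50 CG sites, with 99.3% of windows holding as few, and no probe of the gene lies in it. Probe 4 lies whole inside promoter windows of another gene, Gm3458, so which gene that probe marks is not known.

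Aldh1a1 encodes a retinaldehyde dehydrogenase of adult epithelia and lies next to its close relative Aldh1a7. In its region, chr19:20668057-20668958, 2 of 4 probes were used. Probe 1 had 1840 at 32 months and 1980 at 3 months, a log2 ratio of 0.03 with an error of 0.22. Probe 2 had 47.1 at 32 months, not well above background, and 83 at 3 months, at least 1.60-fold lower at 32 months. The median of -0.32 ± 0.50 (SD, 2 probes) therefore joined a bright probe at nearly equal signal with a dim one, and it was 0.081 under normexp.

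**Figure D5:**
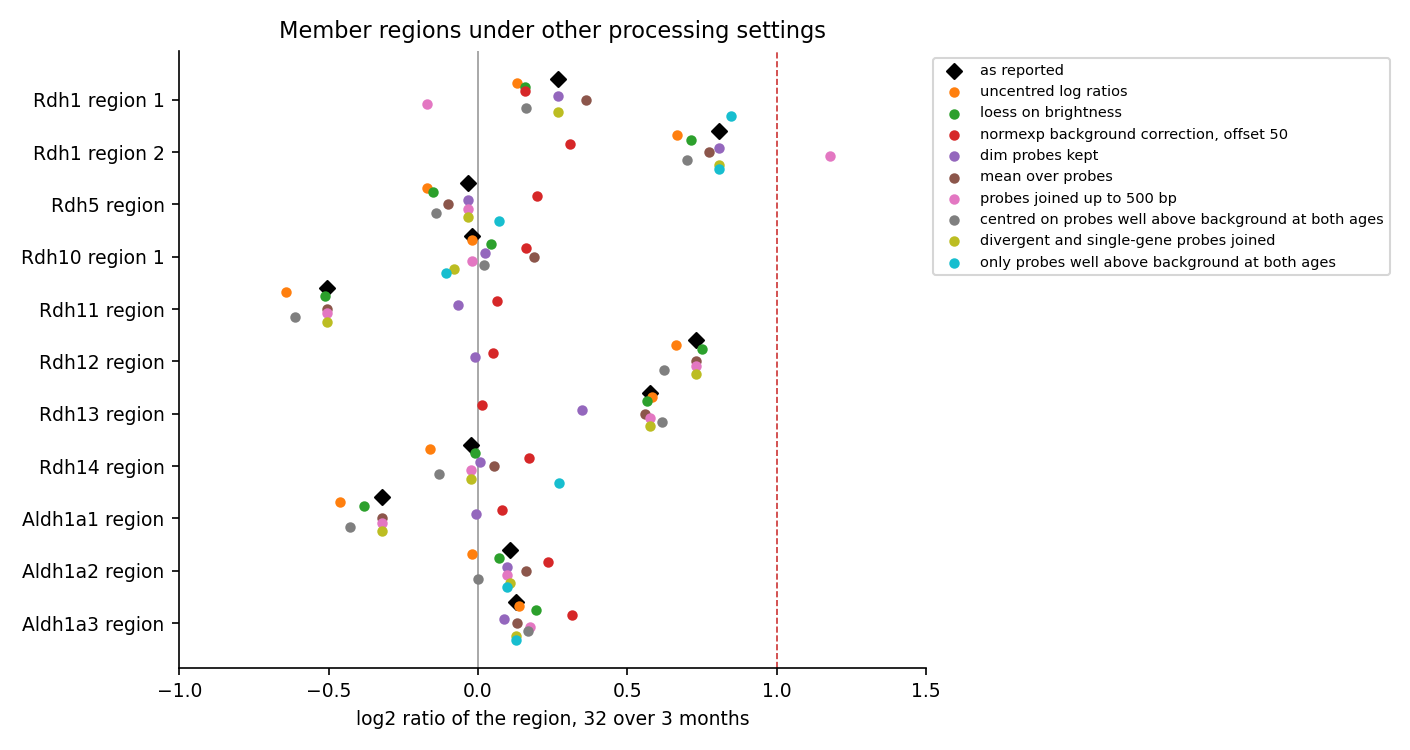
Region values, as log2 ratios of 32 over 3 months, as reported (black diamonds) and under 9 other settings (coloured points). The second Rdh1 region lies above 0 throughout, between 0.31 and 1.18, as do Rdh13 and Aldh1a3, and each of the other 8 regions has at least 1 point on the other side of 0.

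The other genes of the pathway were taken from a list of 50 carriers, esterifying enzymes, further dehydrogenases, degrading enzymes and receptors. Of these, 43 were on the arrays and 40 had a measured region. Among the 40, 1 was called higher at 32 months, 0 lower and 39 neither, with a median log2 ratio of 0.10. Among all measured gene names 2.29% had a region called higher and 0.758% one called lower. The gene called higher was Crabp1, which encodes a protein that binds retinoic acid in the cytoplasm. Its region, chr9:54562034-54563149, had a median log2 ratio of 3.53 ± 1.57 (SD, 5 probes), and its probes ran between 0.48 and 3.62. No region of the 10 dehydrogenase genes came near that size, the highest being Rdh1 at 0.81.

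The probes of the 10 genes were 45 to 60 bases long and held 0 to 4 CG sites. Of the 30 with at least 1, 53.3% were above background at both ages, as were 50% of the 20 with none. Over the whole arrays these shares were 76.8% of probes with a CG site and 56.3% of probes without. Of the 4 probes at least 2-fold higher at 32 months, 3 were among the 13 used probes with no CG site and 1 among the 23 with at least 1. Over the whole arrays the larger share was in the other class: 1224 of 25549 used probes with no CG site and 2737 of 36862 with at least 1. All 4 probes of these genes lay on the second array, where 7 of the 10 genes were measured. On that array 23.3% of probes carried stand-in signals in both channels, and their median ratio before centring was -0.17, below the -0.03 of probes above background at both ages. Centring on the probes above background at both ages instead lowered every value of the second array by 0.107 and left the Rdh1 probe 1 ratio at 1.32. The share of these differences that this centring or the low signals account for was not tested.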

How the data were processed

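The submitters' processing notes name Agilent Feature Extraction 9.1.3.1. Signals are deposited processed intensity values, background-subtracted, detrended and scaled linearly between dyes per the file headers. The deposited mean and local background intensities served the normexp alternative. A log10 ratio deposited for each spot served the uncentred alternative, its deposited log10 error is printed as the scanner error after conversion to log2, and the deposited p-value of single spots was not used. The authors' value table equalled the processed signals in 100% of spots. Both files deposited for an array held the same spots, so each channel was used once, the dye in the labels giving the age. Columns unmatched to a sample numbered 0.

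Log2 ratios of red over green were centred on the median of each array. Control spots and outlier marks were left out, and probes were joined into regions as given above. Arrays give no sampling depth, and their number limits the precision. The members and the gene lists were chosen with earlier results of these data known. Named genes are every member, and of the other retinoid genes those called. A result of the other retinoid genes under a different joining distance is not reported here. Alternatives covered centring, loess, normexp with an offset of 50, filters on dim probes, the mean, joining distance and the value table. Centring on bright probes, a size of 0.5 and joining of divergent with single-gene probes were added after the values were seen. On simulated data the rule for calls was tested as well. Promoters and gene names came from RefSeq GRCm38.p6, whose coordinates do not match the files' positions. Python 3.11.15 with pandas 2.3.3, R 4.3.3 and limma 3.58.1 were used.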

Additional observations from a re-analysis of the deposited data

How the results depend on the processing

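No paired analysis was possible because each age had 1 sample per array. Of 106 region values under other settings, 101 lay within the SD over probes of the reported value and 5 outside it, and 17 had the other sign, spread over 8 of 11 regions. The 101 are no measure of robustness, as that SD came from few probes and some values could not differ. The value table equalled the processed signals, and joining divergent with single-gene probes changed only the first Rdh10 region. The regions that kept their sign were the second of Rdh1, Rdh13 and Aldh1a3. The only settings that called a region of these genes were joining up to 500 bp, with 1 called higher, and calling from 0.5, with 2 called higher and 1 lower. Among all regions, calls split into 309 higher and 97 lower as reported, 421 and 20 under normexp, 242 and 134 without centring, 246 and 56 with dim probes kept, and 812 and 433 from 0.5. Those called higher were 76.1% as reported, 95.5% under normexp, 64.4% without centring and 65.2% from 0.5. By construction, joining up to 500 bp leaves fewer probes in a region, and the 50 that normexp adds to both channels draws ratios of dim probes towards 0. Keeping dim probes adds those above background at neither age. How much each of these accounts for, and the cause under the other settings, was not tested. Requiring both ages above background gave no value for Rdh11, Rdh12, Rdh13 and Aldh1a1. Signal over background sets the limit: 24 of 50 probes were dim in at least 1 channel, with scanner errors up to 2.07.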
